A study of Mus musculus with 21 samples.

Results

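The block described here is a 2-Mb stretch of mouse chromosome 13, between its 65- and 67-Mb positions in build mm10, in which H3K4me1, the monomethyl mark of histone H3 lysine 4 found at enhancers, was low in 2 of 4 embryonic stem cell lines. Its members are the 259 regions that start between those positions, out of 186824 regions with a level. The block was proposed because the level there was lower in the floxed and DKO lines than in the dCD and WT lines, so those differences are given as a description, with no test. The 407 regions that start in the 5 Mb below and the 289 in the 5 Mb above served as flanks.

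Levels came from CUT&RUN, in which an antibody guides MNase to cut out the chromatin that carries its target, on mouse embryonic stem cells. The floxed line lacked MLL3 and carried a floxed MLL4 (MLL3KO_MLL4fl), the DKO line lacked both enzymes (MLL3KO_MLL4KO), the dCD line carried CD alleles of both (MLL3CD_MLL4CD), and WT cells are labelled wild type. Naive cells were kept in LIF and 2i, and formative cells had been without both for 63 h. Of 21 samples, 16 were H3K4me1 libraries. Each of the 8 groups of line and state had 2 H3K4me1 libraries grown separately, but the deposited table gives 1 pooled level per group, so no difference below carries a replicate error or a p-value of its own. The labels call WT and dCD cells R1 and name no parental line for floxed and DKO cells, so the loss of MLL3 and the line of origin cannot be told apart in these data, nor can fewer cells with the mark and less of it per cell. The labels also give the H3K4me1 antibody 2 different catalogue numbers, of which 1 is known as an H3K27ac antibody, and the mark is named here as labelled. Levels of MLL3 and MLL4 themselves were not analysed here, so the genotypes stand as labelled.

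MLL3 and MLL4 are the main enzymes that place H3K4me1 at mammalian enhancers. Many zinc finger genes lie in clusters made by tandem duplication, in which neighbouring copies stay alike in sequence. Most mammalian zinc finger proteins with a KRAB domain bring TRIM28 and the histone methyltransferase SETDB1 to DNA, where they silence transposable elements.

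The RefSeq annotation of this build places 85 genes in the block, of which 24 are protein-coding and 12 of those encode zinc finger proteins. It also holds 40 pseudogenes, 13 of them of the vomeronasal receptor family Vmn2r, and 17 long non-coding RNA genes. The flank below has 7 zinc finger genes among 46 protein-coding genes and the flank above has 25 among 41. The coding genes at the lower end of the block include the membrane transporter gene Mfsd14b, the olfactory receptor gene Olfr466, the NLR family gene Nlrp4f and the zinc finger gene Zfp369. At its upper end lie Uqcrb, a subunit of respiratory complex III, Mterf3, a mitochondrial transcription termination factor, and Ptdss1, a phosphatidylserine synthase. Between these ends lies an array that includes 2410141K09Rik, Gm10324, Gm17353, Gm46425, Zfp640 and Gm10323, all annotated by RefSeq as coding for zinc finger proteins.

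Much of the array's sequence is made of short words found more than once in the genome, and a few stretches are printed to show it. Capitals mark bases that lie within a 32-base word found more than once in the genome on either strand, and lower case marks bases in unique words. The first sequence is the word with the most copies among words found nowhere outside the block, read at chr13:65337939-65337970 on the plus strand.
Most frequent block word: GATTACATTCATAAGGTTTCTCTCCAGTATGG
It occurs 181 times, 104 on the plus strand and 77 on the minus strand, with starts from 65337939 to 66852752. Of these copies, 102 start in annotated coding sequence, 48 in annotated pseudogenes, and 7 in a region of the table.

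The next sequences are RefSeq promoters of build GRCm38.p6, 300 bases around the start of each gene and read along the gene. The first 2 belong to genes of the array, at chr13:66441069-66441368 on the minus strand and chr13:66113203-66113502 on the plus strand. The third belongs to Mfsd14b at the lower end of the block, at chr13:65112933-65113232 on the minus strand.
2410141K09Rik promoter: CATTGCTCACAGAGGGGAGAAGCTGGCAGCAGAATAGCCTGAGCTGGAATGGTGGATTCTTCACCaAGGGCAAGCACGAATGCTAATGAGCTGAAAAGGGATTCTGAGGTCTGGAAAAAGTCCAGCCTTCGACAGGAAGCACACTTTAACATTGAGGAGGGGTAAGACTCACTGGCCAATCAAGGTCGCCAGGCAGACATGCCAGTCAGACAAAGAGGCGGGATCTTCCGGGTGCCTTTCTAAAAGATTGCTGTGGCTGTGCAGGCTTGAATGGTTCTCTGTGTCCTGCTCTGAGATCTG
Gm10324 promoter: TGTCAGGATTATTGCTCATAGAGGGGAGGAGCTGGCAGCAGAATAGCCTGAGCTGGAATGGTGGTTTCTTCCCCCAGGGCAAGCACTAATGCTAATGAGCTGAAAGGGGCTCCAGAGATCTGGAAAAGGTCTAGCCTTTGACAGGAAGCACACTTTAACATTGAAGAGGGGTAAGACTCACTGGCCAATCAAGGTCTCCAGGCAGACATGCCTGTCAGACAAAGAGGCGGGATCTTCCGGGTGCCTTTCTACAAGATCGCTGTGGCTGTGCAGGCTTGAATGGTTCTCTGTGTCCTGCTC
Mfsd14b promoter: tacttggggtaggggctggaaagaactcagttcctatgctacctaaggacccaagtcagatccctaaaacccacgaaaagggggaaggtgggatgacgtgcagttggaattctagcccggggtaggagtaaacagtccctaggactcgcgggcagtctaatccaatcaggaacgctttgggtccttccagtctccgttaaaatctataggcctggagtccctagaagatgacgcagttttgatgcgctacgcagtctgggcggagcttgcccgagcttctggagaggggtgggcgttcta
Repeated words cover 99.7% of the 2410141K09Rik promoter and 100% of the Gm10324 promoter, and none of the Mfsd14b promoter. Of 34 promoters in the block, 28 have at least 50% of their bases in repeated words, against 13 of 73 in the flank below and 8 of 81 in the flank above. The promoters of 11 block genes, 2410141K09Rik itself included, have at least 80% of their bases in common with that of 2410141K09Rik, and none in the flanks do. Each of these 11 holds the letters CCAAT and the letters CCGGAA on 1 strand or the other. CCAAT, the core of the motif that NF-Y binds, is present in 27 of the 34 block promoters (79.4%), against 37.4% of 32851 RefSeq promoters of the same length. CCGGAA, the core of ETS-family motifs, is present in 21 of the 34 (61.8%), against 14.9%. A match of letters is a description and does not show binding, and copies of 1 promoter are not independent of each other.

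The centres of 2 regions are shown for contrast, the second lowest and the highest region of the block by the measure defined further on. They are read on the plus strand at chr13:66450281-66450480 and chr13:65240112-65240311.
Second lowest region centre: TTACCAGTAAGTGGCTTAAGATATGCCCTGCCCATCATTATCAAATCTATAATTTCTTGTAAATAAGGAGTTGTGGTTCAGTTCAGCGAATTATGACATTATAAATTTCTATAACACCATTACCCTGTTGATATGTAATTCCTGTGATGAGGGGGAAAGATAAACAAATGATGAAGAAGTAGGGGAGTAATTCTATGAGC
Highest region centre: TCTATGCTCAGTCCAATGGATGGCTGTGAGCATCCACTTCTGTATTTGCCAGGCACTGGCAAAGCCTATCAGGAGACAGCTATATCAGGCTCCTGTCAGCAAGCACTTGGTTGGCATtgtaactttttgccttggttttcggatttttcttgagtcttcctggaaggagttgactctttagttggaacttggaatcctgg
All 200 bases of the first lie in repeated words, against 58.5% of the second.

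In naive cells the block held 9054 normalized reads in floxed cells, 6517 in DKO cells, 21662 in dCD cells and 23095 in WT cells, summed over its 259 regions. That is 39.2% of the WT sum in floxed cells, 28.2% in DKO cells and 93.8% in dCD cells. The median region had 18.6 reads in floxed, 11.9 in DKO, 43.5 in dCD and 50.2 in WT cells. Over all regions of the table the medians were 37.1, 31.7, 31.6 and 39.3 reads in the same order of lines. In naive cells the block thus stood below the typical region in floxed and DKO cells and above it in dCD and WT cells.

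In formative cells the block held 4436 reads in floxed, 6142 in DKO, 14008 in dCD and 11419 in WT cells. These are 38.8% of the WT sum in floxed cells, 53.8% in DKO cells and 123% in dCD cells. The lowest group was therefore DKO in naive cells and floxed in formative cells, and the highest was WT in naive cells and dCD in formative cells. Counted per region, DKO was the lowest of the 4 lines in 158 naive regions (32.1% of all regions) and floxed in 165 formative regions (24.2% of all regions). The median region had 7.75 reads in floxed, 10.2 in DKO, 27.7 in dCD and 25.8 in WT formative cells. Over all regions these medians were 35.0, 30.6, 29.6 and 37.6, so by reads the block stood below the typical region in all 4 lines. Block regions were also narrower, with a median of 1512 bases against 1948. In level, which is scaled to length, the block medians of dCD and WT cells were 5.91 and 5.65. All regions had 5.19 and 5.59. Depth was thin in the low groups, since 153 floxed and 128 DKO regions had under 10 reads in formative cells, against 34 in dCD and 49 in WT cells.

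**Figure D1:**
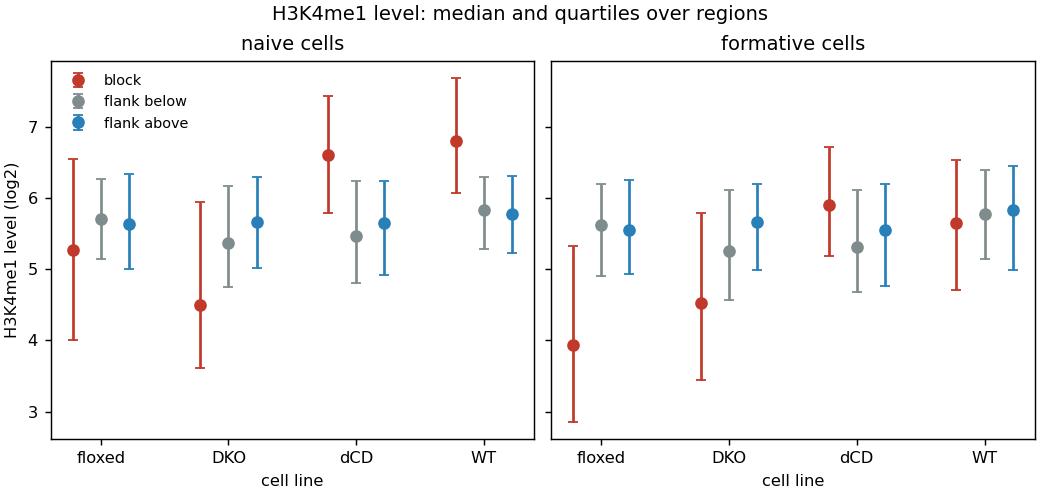
Median H3K4me1 level (log2) with its quartiles over the regions of the block and of each flank, for floxed, DKO, dCD and WT cells in the naive and formative states. The flank medians lie between 5.26 and 5.84 in all 8 groups, whereas the block medians run from 3.94 in formative floxed cells to 6.80 in naive WT cells.

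A level is the log2 of 1 plus a constant times a region's normalized reads divided by its squared length. Differences are therefore read within a region, on the log2 scale, and a difference of −1 is a 2-fold lower value of that sum. Where the sum is close to 1, a difference is smaller than the log2 ratio of reads. In the widest region of the block, 34.4 floxed against 896 WT naive reads gave −3.53. The median difference from WT in naive cells was −1.54 in floxed, −2.14 in DKO and −0.22 in dCD cells. The flank below gave −0.04, −0.36 and −0.29 for the same comparisons, the flank above 0.01, −0.08 and −0.11, and all regions −0.03, −0.30 and −0.29. At least 2-fold lower than WT were 170 of 259 block regions in floxed cells (all regions 4.38%), 198 in DKO cells (16.2%) and 35 in dCD cells (13.9%). Higher by that factor were 2 regions in floxed cells (0.864%), 1 in DKO cells (2.54%) and none in dCD cells (1.55%).

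In formative cells the median difference from WT was −1.57 in floxed, −1.20 in DKO and 0.37 in dCD cells. Lower by at least 2-fold were 167 regions in floxed cells (all regions 3.83%), 142 in DKO cells (20.2%) and 13 in dCD cells (20.1%). Higher were 3 in floxed (0.526%), 21 in DKO (4.47%) and 42 in dCD cells (2.59%). Across the whole table DKO and dCD levels sat lower than WT levels by 0.35 each in naive cells and by 0.36 and 0.40 in formative cells, as the difference of the medians of all regions. Relative to that shift the naive block medians were −1.79 in DKO and 0.14 in dCD cells, and the formative ones −0.84 and 0.77. The sign of the dCD value in naive cells thus turns with the scaling.

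Floxed and DKO cells both lay below dCD and WT cells in 190 naive regions of the block (73.4%, all regions 12.2%), in 171 formative regions (all regions 10.5%) and in 166 in both states (64.1%, all regions 3.25%). These counts restate how the block was chosen. DKO against dCD gave medians of −1.81 in naive and −1.40 in formative cells, with 181 regions (all regions 2.6%) and 158 regions (2.4%) at least 2-fold lower. Regions at least 2-fold higher numbered 0 in naive (1.33%) and 1 in formative cells (2.35%). dCD against floxed gave 1.29 and 1.93, with 154 (4.42%) and 187 (5.49%) at least 2-fold higher.

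DKO and floxed cells, the pair that differs by MLL4, did not keep 1 direction. DKO lay below floxed in naive cells, with a median of −0.36, 71 regions at least 2-fold lower (all regions 15.9%) and 11 higher (4.36%). DKO lay above floxed in formative cells, with a median of 0.48, 59 regions at least 2-fold higher (6.47%) and 15 lower (16.7%). The flanks below and above gave −0.30 and 0.05 in the naive state, and −0.25 and 0.18 in the formative one. The difference between the states was not tested.

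Windows of 2 Mb were moved in steps of 1 Mb, and 2420 held at least 20 regions. Each was given its median of floxed and DKO minus dCD and WT levels, averaged over the states. The block had the lowest, at −1.68, against −0.02 for the median window. The block was chosen by this same contrast, so its rank restates the choice. The next lowest windows were chr12:114000001-116000000 with −1.18 over 44 regions and a window on chromosome 4 with −1.11 over 39. Across the 259 regions, floxed minus WT in naive cells and DKO minus dCD in formative cells had a Pearson r of 0.82, against 0.08 over all regions. These comparisons share no library, but both were used to choose the block.

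The low stretch did not fill the block. In steps of 100 kb, the median of floxed minus WT in naive cells was at or below −1 in 11 of 20 steps, the first of which began at 65300001 and the last ended at 66700000. For DKO minus WT it was 15 steps, ending at 66900000. In formative cells it was 12 steps for floxed, over the same span as in naive cells, and 11 for DKO, from 65400001 to 66700000. Of 72 flank steps with at least 3 regions, 4, 6, 4 and 9 reached −1 in these 4 comparisons.

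**Figure D2:**
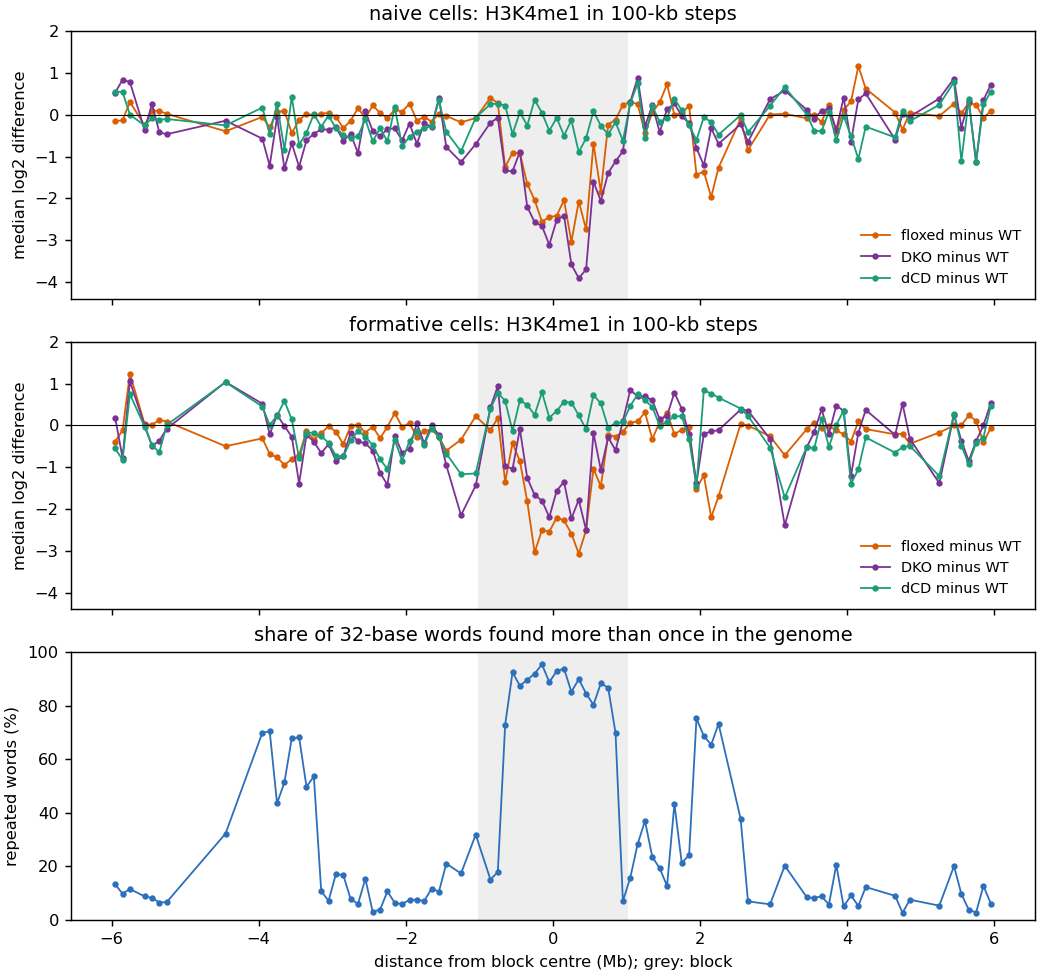
Median log2 H3K4me1 difference from WT of floxed, DKO and dCD cells in steps of 100 kb with at least 3 regions, against the distance from the centre of the block, above the share of 32-base words found more than once in the genome. Floxed and DKO lines dip inside the grey block, to −3.03 and −3.91 at the lowest naive steps, and dCD does not. The share of repeated words is 69.8 to 95.4% over the 16 steps from 65300001 to 66900000. In naive cells the floxed median was at or below −1 in 11 of these steps and the DKO median in 15.

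By bounds set after these steps had been seen, the 141 regions from 65600001 up to the step that begins at 66500001 carried the largest differences. Their medians against WT were −2.28 in floxed and −2.83 in DKO naive cells, against −2.33 and −1.78 among formative ones. At least 2-fold lower were 126, 135, 126 and 106 regions (all regions 4.38%, 16.2%, 3.83% and 20.2%). The dCD medians there were −0.22 and 0.37. Reads in this middle stretch summed to 2385 in floxed, 1514 in DKO, 10340 in dCD and 11480 in WT naive cells.

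The ends of the block were different. The 16 regions up to 65300000 had a median of 0.28 in floxed and −0.20 in DKO naive cells. At least 2-fold lower than WT were none of the 16 in floxed (all regions 4.38%) and 2 in DKO naive cells (16.2%). The 13 regions from 66900001 had medians of 0.24 and −0.87. Between 66500001 and 66900000 the 48 regions gave −1.01 and −1.60. Within that last stretch the steps from 66700001 gave floxed medians of −0.23 and −0.12. Over all words of these steps, not only those in regions, 86.7% and 69.8% are repeated.

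At the rule's lower bound, the 3 regions just inside, at Mfsd14b and Olfr466, had floxed minus WT differences of −0.26, 0.24 and 0.41 in naive cells. The 3 just outside, at Cntnap3 and Spata31, had 0.20, −0.60 and 0.67. At the upper bound the 3 just inside, in introns nearest Mterf3, had 0.50, 0.62 and 0.63, and the 3 just outside had 0.14, 0.57 and 0.55. DKO minus WT was −0.82, 0.79 and −0.19 inside and 0.63, −1.28 and −1.31 outside the lower bound, and −0.91, −1.48 and −1.21 inside and −0.46, 0.86 and 0.76 outside the upper one. Formative floxed cells stood at −0.52, −0.50 and −0.15 just inside the upper bound, and at 0.04, 0.25 and 0.22 just outside it. The lower bound thus did not separate low from high regions among its nearest members. At the upper bound the regions inside all lay below those outside in naive DKO and formative floxed cells. In naive floxed and formative DKO cells the values inside and outside the upper bound overlapped.

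By the table's own nearest genes most of the low regions gathered in 3 groups. The 73 regions nearest Gm10324 had median differences from WT of −2.29 in floxed and −2.68 in DKO naive cells. Of them, 68 and 72 were at least 2-fold lower (all regions 4.38% and 16.2%). The 55 nearest 2410141K09Rik had −2.07 and −2.73, with 45 and 50 lower. A further 72 regions, from 65345355 to 65728590, carry no gene name in the table. They had −1.29 and −1.89, with 46 and 50 lower. Outside these groups, the 50 block regions nearest other named genes without zinc finger symbols had 11 lower in floxed and 24 in DKO naive cells.

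The other named loci with at least 5 regions stood closer to WT. Uqcrb, with 30 regions that reach into the upper array, had −0.33 and −1.41 in naive cells. The 8 regions of Zfp369 had 0.12 and −0.01, the 7 of Mterf3 0.34 and −0.98, and the 6 of Nlrp4f 0.44 and −0.24. Zfp369 is a zinc finger gene inside the block but outside the repeated array. In naive cells none of its 8 regions was at least 2-fold lower than WT in the floxed line (all regions 4.38%). In the DKO line 2 were (16.2%). The 120 flank regions nearest genes with zinc finger symbols had medians of 0.05 and −0.20 in naive cells, and the 2805 elsewhere in the genome had −0.02 and −0.24.

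The widest region of the block, chr13:66433193-66448501, covers the 2410141K09Rik promoter printed above and is annotated as intronic. It held 34.4 reads in floxed, 30.5 in DKO, 1116 in dCD and 896 in WT naive cells. In formative cells it held 29.5, 27.9, 647 and 383 reads in the same order of lines. Floxed and DKO cells were thus within a few reads of each other and far below both other lines in either state. The authors' deposited table lists the region as lower in formative than in naive WT cells, with a log2 fold of −1.28 and an FDR of 1.3e-12.

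Regions with at least 32 WT reads, averaged over both states, were ranked by the mean of floxed minus WT and DKO minus WT over the states. The lowest, chr13:65840590-65841484, is intergenic and nearest Gm10324, and every word in it is repeated. It held 1.05 reads in floxed, 0 in DKO, 17.6 in dCD and 42.7 in WT naive cells, and 1.09, 0, 6.55 and 35.2 in formative cells. In this region dCD cells also stood below WT, with differences of −1.27 and −2.40.

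The second lowest, chr13:66449558-66451203, lies upstream of the 2410141K09Rik start, at a distance of −9262 bases, and had a mean difference of −5.35. It held 1.10 reads in floxed, 1.38 in DKO, 46.3 in dCD and 99.6 in WT naive cells. In formative cells it held 0.784, 0.536, 29.6 and 34.9 reads in the same order. Its centre is the first of the 2 region sequences printed above.

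The third lowest, chr13:66298660-66300600, had a mean of −5.18 and held 1.21 reads in floxed, 2.77 in DKO, 98.6 in dCD and 123 in WT naive cells. The other 5 of the lowest 8 had means from −4.86 to −3.92 and lie at chr13:66414508-66417720, chr13:66425198-66428437, chr13:65932770-65935728, chr13:66289799-66293199 and chr13:66311499-66312612. In each of these 8 regions both floxed and DKO cells were below both dCD and WT cells in both states. The ranking and the choice of the block used these differences, so that order restates the choice.

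The 4 highest regions lay at the ends of the block. The highest, chr13:65239268-65241154, is nearest Nlrp4f and held 77.4 reads in floxed, 110 in DKO, 83.8 in dCD and 53.8 in WT naive cells. The next, chr13:65258024-65260639 near Zfp369, held 93.7, 148, 142 and 87.6 reads in that order of lines. In both, DKO was the highest line and WT the lowest. The region at the Zfp369 start, chr13:65276543-65281053, held 140, 214, 225 and 115 reads in that order. The region at the Mterf3 start, chr13:66931167-66936005, held 141, 189, 215 and 111. At these 2 start sites DKO and dCD stood closest to each other, and floxed closest to WT. The start-site region of Mfsd14b, chr13:65110231-65114124, whose unique promoter is printed above, also had DKO and dCD above floxed and WT, with 90.4, 134, 112 and 75.8 reads. That of Nlrp4f, chr13:65204796-65205984, held 39.2, 24.7, 40.1 and 28.5.

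**Figure D3:**
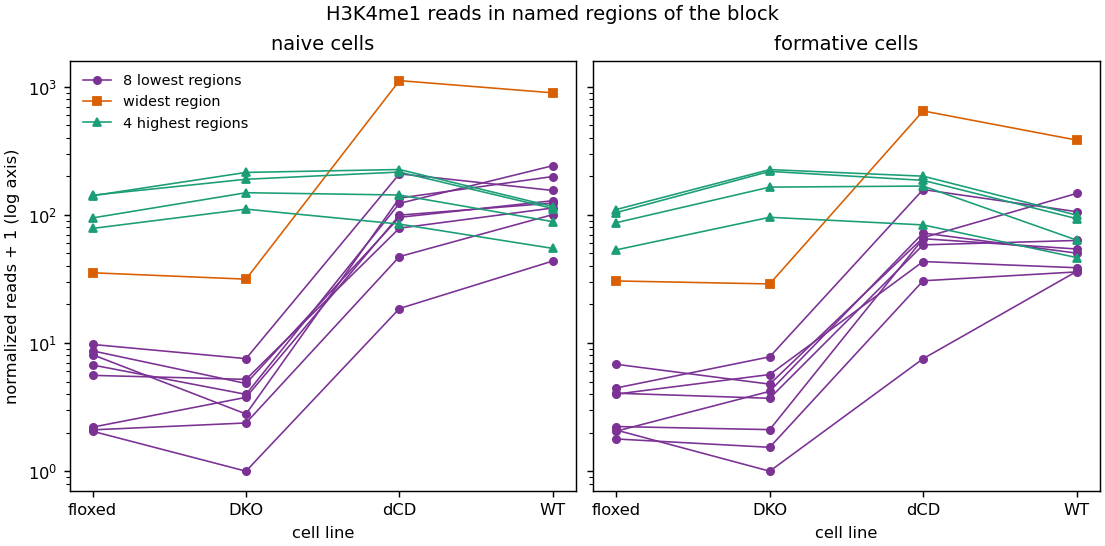
Normalized H3K4me1 reads plus 1, on a log axis, in floxed, DKO, dCD and WT cells for the 8 lowest regions, the widest region and the 4 highest regions of the block, with 1 line per region. The lowest regions step up between DKO and dCD cells, from under 10 reads to at least 17.6 in naive cells, and the highest regions do not.

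The low regions were made of repeated sequence. Over the 259 regions the median share was 90.6%, against 2.61% in the flank below, 3.14% in the flank above and 1.89% over all regions (the last from every 16th word). At least 50% of words were repeated in 227 block regions. Nearly all the copies lay inside the block itself, since the median share with a copy in the block was 89.6% and that with a copy outside it 4.01%. A typical word in a block region had 5 copies in the genome. Block regions also had fewer CpG sites, at a median of 5.75 per kb, against 10.4 and 11.2 in the flanks and 11.7 over all regions.

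The 22 block regions with at most 10% repeated words had median differences from WT of 0.24 in floxed and −0.31 in DKO naive cells, and −0.11 and 0.44 in formative cells. None of the 22 was at least 2-fold lower in floxed cells in either state (all regions 4.38% and 3.83%). In DKO cells 4 were lower in naive (all regions 16.2%) and 1 in formative cells (20.2%). The 227 with over 50% repeated words gave −1.72 and −2.33 in naive and −1.91 and −1.35 in formative cells, with 170 and 191 naive and 167 and 140 formative regions at least 2-fold lower. All 170 and all 167 floxed calls in the block thus fell in regions of mostly repeated sequence.

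Regions of repeated sequence outside the block were also lower than WT in floxed and DKO cells, with smaller medians. In formative DKO cells these medians were no lower than the −0.25 of all regions. The 6616 regions outside the block and flanks with over 50% repeated words gave −0.24 in floxed and −0.43 in DKO naive cells. In formative cells they gave −0.44 and −0.18. At least 2-fold lower were 14.0% and 25.6% of them in naive cells (all regions 4.38% and 16.2%). In formative cells it was 23.3% and 17.6% (all regions 3.83% and 20.2%). The 81 such flank regions gave −0.29 and −0.61 in naive cells, with 14 and 29 at least 2-fold lower (17.3% and 35.8%). In formative cells they gave −0.71 and −0.15, with 23 and 19 lower (28.4% and 23.5%). The 4 flank steps of 100 kb in which the naive floxed median reached −1 adjoin each other, from 67900001, and have 65.4 to 75.3% repeated words. Their medians were −1.43, −1.36, −1.97 and −1.26, over 6, 6, 3 and 3 regions, which is close to the block's −1.54. Inside the block, the mean of the 4 differences and the share of repeated words had a Pearson r of −0.44 over 259 regions, and with log2 WT reads it was −0.06. How reads that match several places equally well were assigned is not given in the sources used here, and its part in the differences was not tested.

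**Figure D4:**
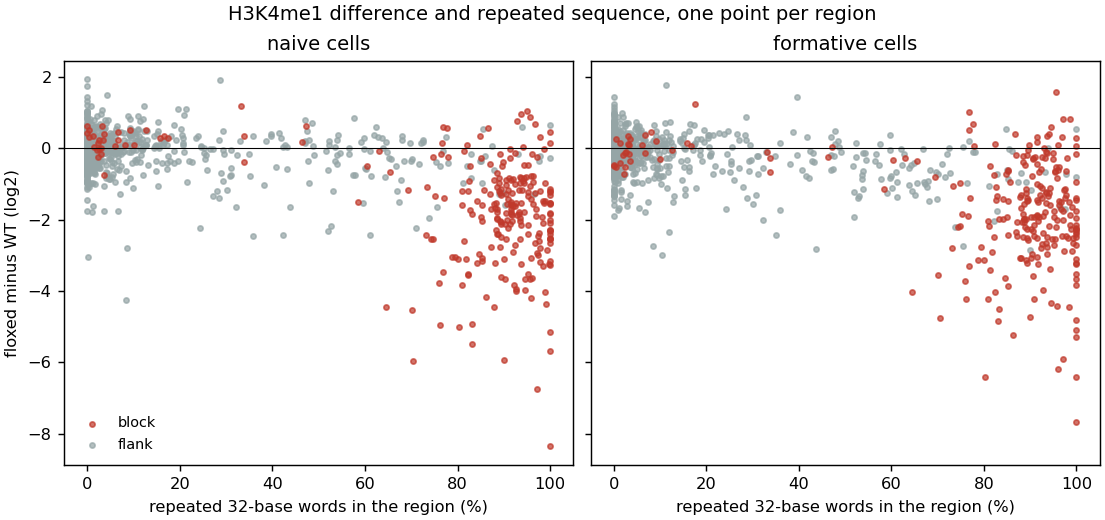
Log2 difference in H3K4me1 between floxed and WT cells against the percentage of 32-base words in the region that occur more than once in the genome, with 1 point per region of the block or the flanks. Block regions with at most 10% repeated words have a median of 0.24 in naive cells, while those over 50% reach down to −8.36.

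The change from naive to formative cells was not used to choose the block. Formative minus naive medians over the block were −1.14 in floxed, −0.15 in DKO, −0.58 in dCD and −1.10 in WT cells. All flank medians lay between −0.15 and 0.03. At least 2-fold lower in formative cells were 140 regions in floxed (all regions 10.6%), 25 in DKO (1.25%), 52 in dCD (2.47%) and 147 in WT cells (11.4%). Higher by that factor were 6 regions in floxed (9.33%), 13 in DKO (1.2%), 1 in dCD (1.37%) and 4 in WT cells (11.1%). The block's reads in formative cells were 49.0% of those in naive cells for floxed, 94.2% for DKO, 64.7% for dCD and 49.4% for WT.

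Floxed and WT cells thus showed about the same proportional decrease from very different starting levels, and DKO cells, at the lowest naive level, showed the smallest. A small DKO transition was not particular to the block. Over all regions DKO cells also had the fewest 2-fold changes, with 1.25% lower and 1.2% higher, against 11.4% and 11.1% in WT cells. The 4 comparisons share no library. The differences between these transitions had no replicates to test them.

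For WT cells the authors' deposited table gives a test. It lists 140 of the 259 block regions as lower in formative cells at an FDR under 0.05 (54.1%, all regions 10.5%) and 3 as higher (all regions 9.82%). The flanks had 32 of 407 and 34 of 289 regions lower, and 32 and 30 higher. The lowest FDR in the block in the authors' deposited table was 1.91e-16, at chr13:66672355-66684160, which covers the Zfp640 start and which the table assigns to Uqcrb, with a log2 fold of −1.67. That region held 58.2 reads in floxed, 120 in DKO, 421 in dCD and 218 in WT formative cells, against 186, 148, 961 and 705 in naive cells. The decrease in formative cells was also present at the unique ends, where the 22 regions with at most 10% repeated words had a WT median of −0.56.

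H3K27ac, the acetyl mark of active enhancers and promoters, was read from the authors' deposited log2 folds of DKO against WT, which come from samples outside this series. In the authors' deposited table its median over the block was −1.99 in naive and −1.04 in formative cells, against 0.04 and −0.20 over all regions. At least 2-fold lower were 181 regions in naive cells (69.9%, all regions 22.8%) and 133 in formative cells (51.4%, all regions 27.8%), by the authors' deposited table. The spread of these folds is wide everywhere, and 20 and 40 block regions were at least 2-fold higher (all regions 24.7% and 18.9%).

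Low H3K27ac and low H3K4me1 fell on the same regions. Of the 198 regions at least 2-fold lower in H3K4me1 in naive DKO cells, 165 (83.3%) were at least 2-fold lower in H3K27ac in the authors' deposited table, against 16 of the other 61. Over the whole table it was 39.2% of the 30228 regions that were at least 2-fold lower in H3K4me1. In formative cells it was 107 of 142 in the block (75.4%), against 26 of the other 117, and 41.1% of 37712 over the whole table. Pearson's r between both marks was 0.67 in naive and 0.62 in formative cells over the block and 0.22 and 0.20 over all regions. Both marks are read against WT cells at the same repeated sequence, although from different libraries. The middle stretch had H3K27ac medians of −3.02 and −2.07 by the authors' deposited table, and the lower end 1.03 and 1.02.

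**Figure D5:**
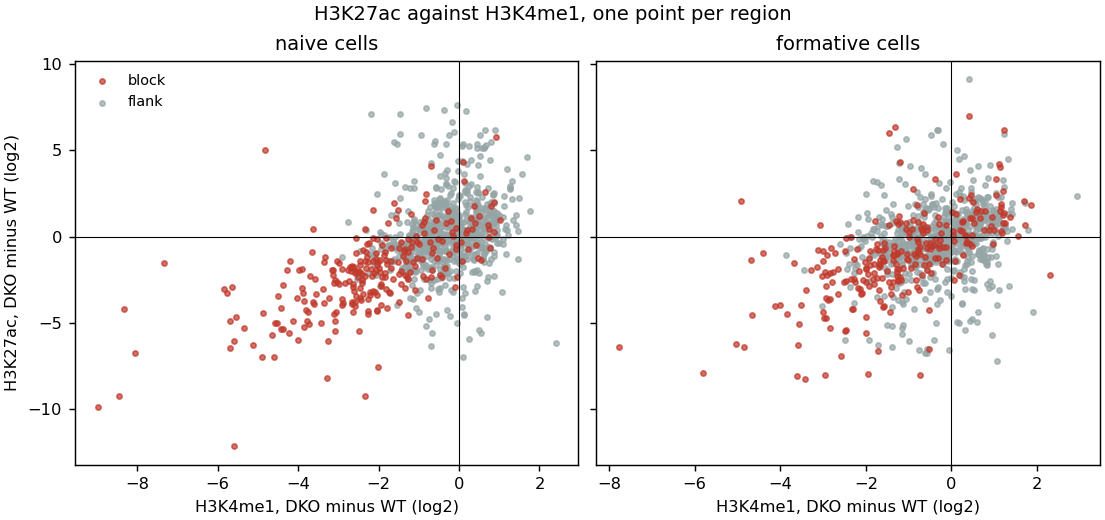
The authors' deposited log2 fold of H3K27ac in DKO against WT cells, plotted against the H3K4me1 difference of the same lines, with 1 point per region of the block or the flanks. Block regions extend to the lower left in both states, with a Pearson r of 0.67 in naive and 0.62 in formative cells.

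H3K27ac also decreased from the naive to the formative state. In the authors' deposited table the block median of formative against naive was −0.78 in DKO and −1.83 in WT cells, while all regions stood at 0.05 and 0.33. At least 2-fold lower were 117 regions in DKO (all regions 18%) and 199 in WT cells (all regions 18.8%), and at least 2-fold higher were 24 in DKO (21.7%) and 13 in WT cells (33%), by the authors' deposited table.

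RNA of the nearest gene was listed for 7 genes of the block in the authors' deposited table. For 2410141K09Rik, the zinc finger gene of the array, that table gives a log2 fold of DKO against WT of −2.27 in naive and −0.40 in formative cells. Of 10885 genes, 274 were at or below −2.27 in naive and 1903 at or below −0.40 in formative cells, and the share at least 2-fold lower was 11.7% (naive) and 5.65% (formative), by the authors' deposited table. In that table the gene 2410141K09Rik was lower in formative than in naive WT cells, with a log2 fold of −0.70, and higher in DKO cells, with 1.17.

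The genes at the ends of the block differed less in naive cells. Uqcrb had −0.24, Zfp369 −0.24, Ptdss1 −0.25, Nlrp4f −0.13 and Mterf3 −0.11 for DKO against WT in the authors' deposited table, and Gm10767, a predicted gene beside Uqcrb, had 0.94. In formative cells the authors' deposited table gives 0.22 for Uqcrb, 0.02 for Zfp369, −0.16 for Ptdss1, 0.22 for Nlrp4f, 0.83 for Mterf3 and 1.04 for Gm10767. For these RNA folds no error was used here. Reads of zinc finger genes that share sequence can be split between copies, so the value of 2410141K09Rik is uncertain.

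The wider repression pathway in which KRAB zinc finger proteins act was read from 16 genes, each by the mean H3K4me1 difference of its regions within 50 kb. No locus reached 1.5-fold in floxed against WT cells in either state (of 21558 loci, 5.34% lower and 1.66% higher in naive, 5.28% and 0.691% in formative cells). In naive DKO cells 1 of 16 was lower than WT (all loci 18.2%), the chromatin remodeller gene Smarcad1 at −1.18, and none was higher (6.72%). In formative DKO cells 1 was lower (18.3%), the HP1 gene Cbx1 at −0.62, and 2 were higher (10.7%), the zinc finger genes Zfp809 at 0.81 and Zfp932 at 0.76. In dCD cells 1 was lower in either state (all loci 15.2% and 17%), Smarcad1 at −0.85 in naive and Atf7ip, a partner of SETDB1, at −0.86 in formative cells. Trim28 itself was at 0.00 in floxed and 0.35 in DKO naive cells against WT. Between dCD and floxed naive cells 5 of 16 were lower (all loci 14.2%), and between formative and naive WT cells 4 of 16 (15.1%).

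The state labels were read against marker loci in the same way, with the caution that a mark at a locus is not expression. Formative against naive differences at Fgf5 were 1.58 in floxed, 0.41 in DKO, 1.05 in dCD and 1.59 in WT cells, and at Pou3f1 0.92, 0.43, 0.43 and 0.90. Otx2 and Dnmt3b were at 0.01 and 0.07 in WT cells. At the pluripotency gene Zfp42 they were −1.17, −0.27, −0.66 and −1.0, and at Klf4 −0.84, −0.14, −0.59 and −0.73, while Pou5f1, Nanog, Sox2 and Esrrb lay between 0.00 and 0.39 in WT cells. The 4 fibroblast loci Col1a2, Prrx1, Twist1 and Thy1 differed from WT by −0.07 to 0.30 in naive floxed cells. In naive DKO cells Col1a2, Prrx1 and Twist1 were at 0.43, 0.33 and 0.50 and Thy1 at −0.18, and in formative DKO cells Col1a2 was at −1.01. Between formative and naive WT cells the differences at Col1a2, Prrx1, Twist1 and Thy1 were 1.25, 1.13, 0.89 and −0.01, in the range of those at the formative loci. The part of other cells in the results was not tested.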

How the data were processed

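Per the submitters' processing notes, the tools named are Trim Galore, Bowtie2, SEACR, DiffBind and deepTools, with build mm10; their versions and settings are not stated in the labels. The deposited table gives, for 186826 regions, 1 log2 H3K4me1 level per group by the authors, with both libraries pooled, plus the authors' own log2 folds and FDR, a q-value. Levels were missing for 2 regions. The column headed CKO was taken as the floxed line from the sample descriptions. A further 14 level columns were not used, and IgG and MLL4 libraries were not analysed here.

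Reads were recovered from levels with the offset fitted to the authors' WT read columns (22.2 in both states), which is applied to the other lines too. With 1 pooled column per group there is no test per region, so the fit planned for replicate columns was not made. Differences are described by medians and by counts at 2-fold, and the only test quoted is the authors' FDR at 0.05. Words of 32 bases were counted on both strands of the GRCm38.p6 assembly, whose chromosome 13 is 120421639 bases long, against a largest region end of 120316480. Scripts were checked on simulated data (Python 3.11.15, pandas 2.3.3, numpy 2.4.6, numba 0.67.0).

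The members, gene lists and measures were chosen with earlier results of these data known. The named regions are the 8 lowest and 4 highest with at least 32 WT reads, those within 1 kb of a start site of a gene that is not a predicted one, the 3 inside and outside each bound, loci with at least 5 regions, the widest region, and list genes past 1.5-fold; the region of lowest FDR and Gm10767 were added after values were seen. Alternatives were another centring, quantile scaling, read pseudocounts, filters and bounds.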

Additional observations from a re-analysis of the deposited data

Results flagged for a closer look

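The dCD minus WT median over the block was −0.22 in naive cells and 0.37 in formative cells, so its sign differed between the states. Centred on the median of all regions the values were 0.14 and 0.77, with the same sign. For DKO minus floxed the medians were −0.36 (naive) and 0.48 (formative), again with opposite signs, which centring left at −0.15 and 0.69. Neither difference between states was tested, since each group has 1 pooled column.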

How the results depend on the processing

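No paired analysis was possible because each group has 1 pooled column, which also leaves no replicate to leave out. Limiting the block to the 22 regions with at most 10% repeated words turned several medians round: floxed minus WT to 0.24 in naive cells, DKO minus WT to 0.44 in formative cells, dCD minus floxed to −0.18 in naive cells, DKO minus dCD to 0.14 in formative cells, the DKO transition to 0.16, and H3K27ac of DKO against WT in the authors' deposited table to 0.27 and 1.13. Elsewhere it gave −0.31 for naive DKO minus WT, −0.11 for formative floxed minus WT, 0.66 for formative DKO minus floxed, −0.56, −0.74 and −0.17 for the WT, floxed and dCD transitions, and −1.12 and −0.58 for the authors' deposited H3K27ac transitions in WT and DKO cells. It left 0 and 4 naive and 0 and 1 formative floxed and DKO regions at least 2-fold lower than WT, and 5 by the authors' deposited FDR. The part that read assignment plays in this was not tested.

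Centring on the median of all regions gave −1.79 for naive DKO minus WT, 0.14 for naive dCD minus WT (turned round), −0.15 for naive DKO minus floxed, and in formative cells −0.84 for DKO minus WT, 0.77 for dCD minus WT and 0.69 for DKO minus floxed. Quantile scaling gave −0.14 for naive DKO minus floxed, −0.83, 0.66 and 0.59 for those formative comparisons, and −1.28 and −0.94 for the WT and floxed transitions. Adding 5 reads gave −1.75 for naive DKO minus WT, −1.07, −0.84 and 0.28 for formative floxed minus WT, DKO minus WT and DKO minus floxed, and −0.97, −0.75 and −0.51 for the WT, floxed and dCD transitions. Another filter kept the 114 regions with at least 32 reads averaged over all 8 groups, floxed and DKO included. These gave −1.94 and −0.053 for naive DKO and dCD minus WT, and −0.99 for the WT transition. Of them, 66 and 81 naive and 67 and 58 formative floxed and DKO regions were lower, and 72 by the authors' deposited FDR. Fewer regions entered, and a filter on this average can drop regions that are low in floxed and DKO cells.

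Narrower bounds, the central 1 Mb of the block, gave −2.07 and −2.64 for naive and −2.26 and −1.70 for formative floxed and DKO minus WT, −1.24 and −0.67 for the floxed and dCD transitions, −2.77 and −1.89 for the authors' deposited H3K27ac folds, and 87 regions by the authors' deposited FDR. Wider bounds, spanning 3 Mb around it, gave −1.21 and −1.83 for naive floxed and DKO and −1.25 for formative floxed minus WT, −0.98, −0.92 and −0.49 for the WT, floxed and dCD transitions, and −1.63, −0.72 and −1.57 for the authors' deposited H3K27ac folds in naive DKO, formative DKO and the WT transition. A 2-Mb flank below turned its naive DKO minus dCD median to 0.025. Centring the authors' deposited WT H3K27ac transition, chosen after seeing the data, gave −2.16. Low reads limit the size of the lowest differences, since a region listed at 0 takes its difference from the added 1.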
